A study of Mus musculus with 12 samples.

Results

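The Gimap genes encode GTPases of immunity-associated proteins, a family of small GTP-binding proteins found mainly in lymphocytes. The 8 listed mouse genes Gimap1, Gimap3, Gimap4, Gimap5, Gimap6, Gimap7, Gimap8 and Gimap9 were taken by gene symbol from the authors' tables, and all 8 were found among the 55335 gene rows counted. They were measured by RNA-seq and by ribosome footprinting, which sequences the mRNA fragments covered by ribosomes, in thymocytes of 6-week-old mice. One genotype was WT and the other was KO for miR-181a/b-1, and each combination of assay and genotype had 3 libraries. The cells of all groups were kept in cycloheximide, a blocker of translation elongation, from the moment of isolation. Neither strain and sex nor the cells in which the deletion acts are given in the labels, and the comparison is made over whole thymocyte suspensions, so fewer cells of a type and less RNA per cell cannot be told apart.

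GIMAP proteins sit on intracellular membranes or in the cytosol and act in the survival and homeostasis of lymphocytes. Loss of Gimap5 in rats and mice depletes peripheral T cells, and Gimap1 is needed for mature lymphocytes to persist. Their transcripts are known to rise when thymocytes pass positive selection and mature from the CD4+CD8+ to the single-positive stage. The deleted microRNAs are abundant in CD4+CD8+ thymocytes and are known for setting the sensitivity of T cell receptor signalling. The main mature product of each deleted gene is given here from RefSeq (GRCm38.p6), with the seed, bases 2 to 8, in capitals; both share 1 seed.
miR-181a-5p: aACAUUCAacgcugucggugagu
miR-181b-5p: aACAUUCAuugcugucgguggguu

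The 8 genes lie next to each other on chromosome 6, from 48647186 to 48770851 in the RefSeq annotation of GRCm38.p6, with 0 other protein-coding RefSeq genes between them. Along the cluster the order is Gimap8, Gimap9, Gimap4, Gimap6, Gimap7, Gimap1, Gimap5 and Gimap3, and Gimap6 and Gimap3 are on the minus strand. RefSeq gave 9 promoter windows for the 8 genes, each from 250 bases before to 50 bases after a start site. For Gimap8 and Gimap9 the start sites used are not the first base of the gene as given here. Gimap8 has 2 windows, of which the first is printed. Because the genes of the cluster differed in their values in the knockout, the windows of 3 of them are printed. Gimap8 was called higher in both assays and Gimap5 in footprints, by the main test without the replicate block described below. Gimap4 had lower values in both assays without passing the test. Capitals mark matches, on either strand, to 1 of 5 short motifs searched for in all windows, named by their factor families RUNX, ETS, FOXO and KLF and by the TATA box.
Gimap8, chr6:48646984-48647283, + strand: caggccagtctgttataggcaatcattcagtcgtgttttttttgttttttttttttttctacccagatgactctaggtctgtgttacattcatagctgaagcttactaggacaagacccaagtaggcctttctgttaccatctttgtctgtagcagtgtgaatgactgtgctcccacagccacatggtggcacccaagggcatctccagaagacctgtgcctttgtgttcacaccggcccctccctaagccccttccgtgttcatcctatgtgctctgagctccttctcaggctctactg
Gimap5, chr6:48745947-48746246, + strand: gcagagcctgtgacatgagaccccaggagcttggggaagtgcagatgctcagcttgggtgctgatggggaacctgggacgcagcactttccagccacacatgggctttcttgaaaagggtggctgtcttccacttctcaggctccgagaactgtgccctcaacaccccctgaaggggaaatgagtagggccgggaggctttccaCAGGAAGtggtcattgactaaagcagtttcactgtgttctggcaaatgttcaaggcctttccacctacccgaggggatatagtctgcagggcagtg
Gimap4, chr6:48684328-48684627, + strand: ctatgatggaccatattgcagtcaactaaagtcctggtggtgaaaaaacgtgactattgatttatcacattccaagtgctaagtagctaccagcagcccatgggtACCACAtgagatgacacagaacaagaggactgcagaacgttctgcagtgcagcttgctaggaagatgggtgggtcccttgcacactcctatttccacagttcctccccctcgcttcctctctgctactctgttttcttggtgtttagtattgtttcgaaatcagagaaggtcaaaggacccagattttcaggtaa
The ETS motif, spelled CAGGAAG, was found in 3 of the 9 member windows (those of Gimap3, Gimap5 and Gimap9), against 13.3% of 32851 windows of all genes. It stands at position -46 from the start of Gimap5. The RUNX motif, spelled TGTGGT, was found in 3 of the 9 member windows (those of Gimap1, Gimap4 and Gimap7), against 16.8% of all windows. It stands at -145 in Gimap4, on the opposite strand, where its letters read as ACCACA. The FOXO motif, spelled GTAAACA, occurred among the members in Gimap3 only, against 3.65% of all windows. The KLF motif, spelled CCACACC, was likewise found in Gimap3 only, against 7.58%. The TATA box, spelled TATAAA, was found in Gimap6 only, against 13.6%. Neither Gimap8 window held any of these motifs. The motifs do not overlap each other in the member windows, and a match is a description, not a binding site.

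Reads in genes numbered 4479182 to 8180286 per library in RNA-seq and 4069968 to 17859770 in footprints. Levels are given as CPM, reads scaled to the library's total, with the SD over n = 3 libraries. The row of Mir181a-1 checked the footprint labels, with 148 ± 16.8 CPM in WT against 0.828 ± 0.317 CPM in KO. In RNA-seq it had 57 reads in WT and 67 in KO and checks nothing, so RNA-seq directions rest on the labels. The deposited counts were adjusted by the authors in a way the sources used here do not give, and same-numbered WT and KO libraries deviated from their group means in mirror image, with r of -0.98 to -0.96 over 9639 genes in RNA-seq and -0.99 over 8613 genes in footprints. These correlations are across genes, which are not independent replicates. The spread within a group may therefore not be that between mice. For this reason the adjusted p (FDR) of each member's call is also given from a fit blocked on the replicate number, which uses the 3 ratios of same-numbered libraries. The design names 3 mice of each genotype, but the labels do not say which RNA-seq and footprint libraries share a mouse, and p-values measure only the spread between these libraries.

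Most Gimap genes had higher values in KO thymocytes. The log2 fold change was above 0 for 6 of 8 in RNA-seq and 7 of 8 in footprints. Over all genes tested it was above 0 for 49.9% and 48.4%. Without the block (edgeR, FDR under 0.05), Gimap8 rose in both assays, and Gimap5, Gimap6, Gimap7 and Gimap9 rose in footprints. With the block only the footprint rises of Gimap8 and Gimap6 passed. Gimap4 had lower values and did not pass in either fit. Together the 8 genes made 646 ± 45.6 CPM in WT against 768 ± 49.7 CPM in KO by RNA-seq, a ratio of 1.19. By footprints they made 869 ± 45.2 against 1055 ± 51.0 CPM, a ratio of 1.21. The summed levels did not overlap between genotypes in either assay, at 607 to 696 against 713 to 810 CPM in RNA-seq and 818 to 903 against 1016 to 1112 CPM in footprints. An exact permutation test of 3 against 3 libraries cannot go below p = 0.1, so the sums were not tested.

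In footprints 5 of the 8 members were called higher (edgeR, FDR under 0.05) and 0 lower, where 9.25% of 13509 genes tested were called higher and 8.34% lower. The 5 were Gimap8, Gimap5, Gimap7, Gimap6 and Gimap9. With the block 2 of 8 were called, Gimap8 and Gimap6, where 1.89% of all genes were called higher. In RNA-seq 1 of 8, Gimap8, was called higher, where 3.48% of 13652 genes were, and 0 were called lower, where 3.43% of genes were. With the block 0 of 8 were called in RNA-seq by edgeR, where 0.388% of genes were called higher; 1 member had an unadjusted p under 0.05 in that fit, where 9.71% of genes did. Among members with lower values, 0 had an unadjusted p under 0.05 in either assay, and DESeq2 also called 0 lower. All 3 KO libraries lay above all 3 WT libraries for 5 members in footprints, where 18.5% of genes did, and for 3 in RNA-seq, where 15.5% did. The median log2 fold change of the members was 0.31 in footprints and 0.20 in RNA-seq, beside -0.01 and -0.00 over all genes tested. All 8 members passed the filter on low counts in both assays.

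**Figure D1:**
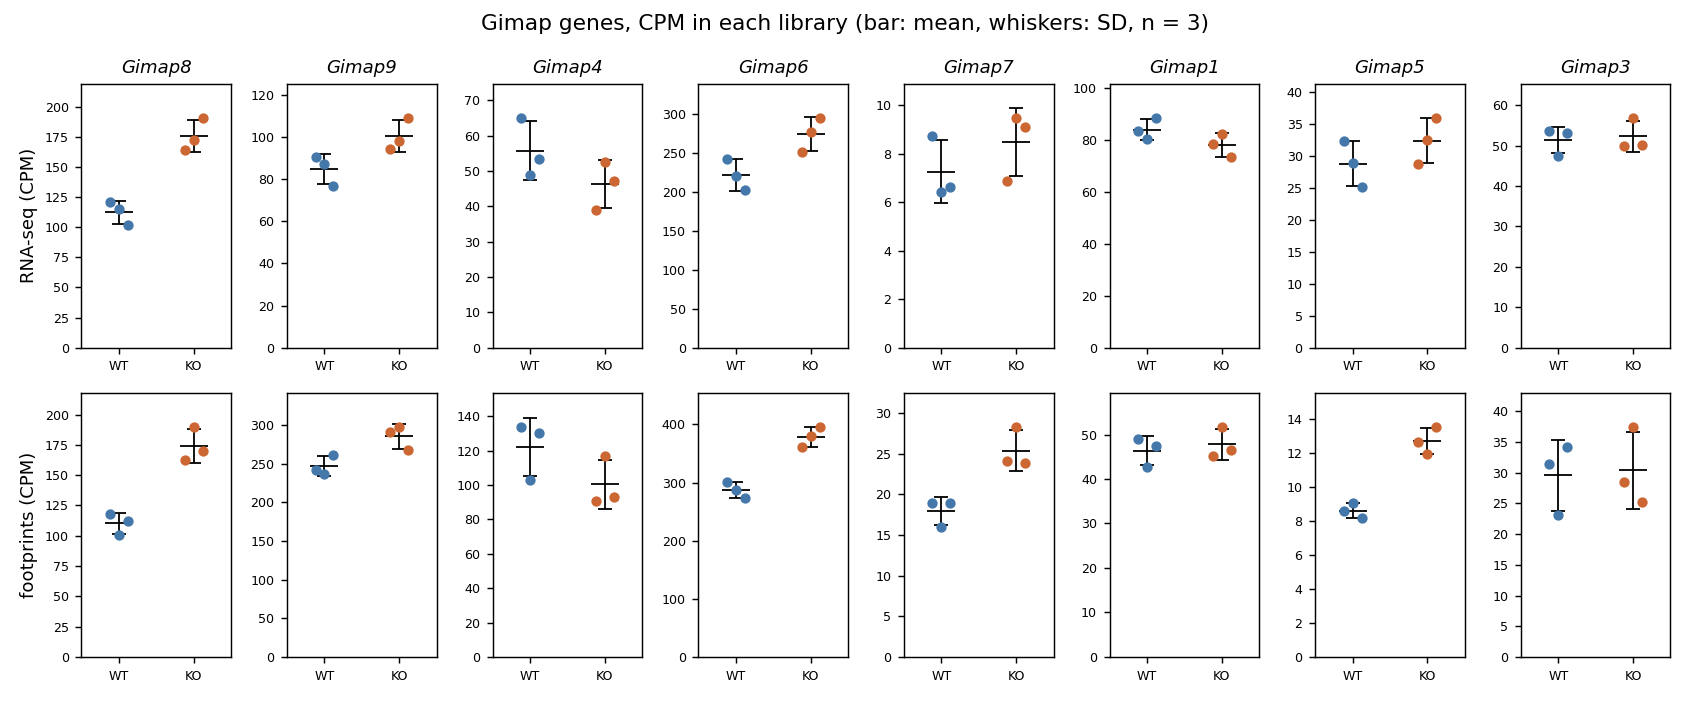
CPM of each Gimap gene in every library of RNA-seq (upper row) and footprints (lower row), WT in blue and KO in orange, each panel on its own axis from 0; lines give the mean and whiskers the SD of 3 libraries. Gimap8 stands apart between genotypes in both assays, at 102 to 121 against 164 to 191 CPM in RNA-seq and 100.3 to 118 against 162 to 190 CPM in footprints.

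Gimap8 (ENSMUSG00000064262.7, chr6:48647186-48660875), the largest protein of the family with several GTPase domains, had the largest change of the 8 genes. Its RNA-seq level was 121, 115 and 102 CPM in WT replicates 1 to 3 and 164, 173 and 191 CPM in KO. Its footprint level was 118, 100.3 and 112 CPM in WT and 162, 190 and 170 CPM in KO. Every KO library was above every WT library in both assays. The fold change was 1.57 in RNA-seq (log2 0.65, SE 0.09, edgeR FDR 0.0129, 0.0658 with the block) and 1.58 in footprints (log2 0.66, SE 0.08, FDR 0.00437, 0.00787 with the block). The RNA-seq call was also lost without WT replicate 2, at FDR 0.0544 and a log2 fold change of 0.66. Gimap8 was thus the one member called in both assays, as were 2.15% of 11854 genes tested in both, in the higher direction.

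Gimap6 (ENSMUSG00000047867.11, chr6:48701583-48708244), which binds the autophagy protein GABARAPL2, was the next member whose footprint rise held with the block. Its footprint level was 301, 287 and 274 CPM in WT replicates 1 to 3 and 361, 380 and 395 CPM in KO. The genotypes did not overlap, and the fold change was 1.32 (log2 0.40, SE 0.05, edgeR FDR 0.00516, 0.0438 with the block). In RNA-seq it had 242, 221 and 202 CPM in WT and 251.3, 277 and 295 CPM in KO, with no overlap but with WT replicate 1 close to KO replicate 1. The RNA-seq difference was 0.31 on the log2 scale (SE 0.09) and was not called (FDR 0.100, range over the alternatives 0.0285 to 0.518).

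Gimap9 (ENSMUSG00000051124.6, chr6:48676121-48679116), one of the less studied members, had 242, 237 and 261 CPM in WT footprints and 291, 297 and 268 CPM in KO footprints. KO replicate 3 was near WT replicate 3, although the groups did not overlap. Its fold change of 1.16 (log2 0.21, SE 0.06) was just under the threshold (edgeR FDR 0.0469), and the call was lost with the block (0.282), in a joint fit of the 12 libraries (0.0852) and without replicate 1 or 2 of either genotype (0.117 to 0.138). In RNA-seq it had 76.9 to 90.6 CPM in WT and 94.2 to 109 CPM in KO, a log2 difference of 0.25 (SE 0.09) that was not called (FDR 0.153).

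Gimap5 (ENSMUSG00000043505.8, chr6:48746197-48754200), the member whose loss causes T cell lymphopenia, rose in footprints. Its level was 8.59, 9.06 and 8.15 CPM in WT and 12.6, 11.95 and 13.5 CPM in KO, from 398 and 375 reads in all. Each KO library lay above the WT libraries, with a fold change of 1.45 (log2 0.53, SE 0.08, edgeR FDR 0.00664, 0.132 with the block). In RNA-seq the genotypes overlapped, at 25.2 to 32.3 CPM in WT and 28.8 to 35.9 CPM in KO (log2 difference 0.18, SE 0.12, FDR 0.441).

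Gimap7 (ENSMUSG00000043931.10, chr6:48718621-48724636), which can stimulate GTP hydrolysis by other family members, also rose in footprints. In footprints it had 18.9, 16 and 19 CPM in WT replicates 1 to 3 and 24.1, 28.3 and 23.8 CPM in KO. The genotypes did not overlap, and the fold change was 1.44 (log2 0.53, SE 0.10, edgeR FDR 0.0174, 0.106 with the block). Without KO replicate 2, its highest library, the call was lost (FDR 0.0660, log2 fold change 0.42). Its RNA-seq level was low, at 6.42 to 8.74 CPM in WT and 6.88 to 9.47 CPM in KO, from 149 and 160 reads, and was not called (log2 difference 0.22, SE 0.18, FDR 0.508).

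Gimap4 (ENSMUSG00000054435.16, chr6:48684578-48692062), known to hasten death of T cells after an apoptotic stimulus, was the one member with lower values in KO in both assays. In RNA-seq it had 65.0, 48.8 and 53.4 CPM in WT and 39.1, 52.6 and 47.3 CPM in KO. In footprints it had 134, 103 and 130 CPM in WT and 91.0, 117 and 93.3 CPM in KO. KO replicate 2 overlapped the WT libraries in both assays. The log2 differences of -0.27 (SE 0.14) in RNA-seq and -0.27 (SE 0.14) in footprints were not called (edgeR FDR 0.309 and 0.228).

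Gimap1 and Gimap3 showed no change that passed the test. Gimap1 (ENSMUSG00000090019.5, chr6:48739047-48743795) had 80.1 to 88.3 CPM in WT and 73.2 to 82.2 CPM in KO RNA-seq, and 42.7 to 49.1 against 45.1 to 51.6 CPM in footprints. Its log2 differences were -0.11 (SE 0.07) and 0.05 (SE 0.08), with edgeR FDR 0.391 and 0.683. Gimap3 (ENSMUSG00000039264.9, chr6:48764464-48770851), a close relative of Gimap5, had 47.6 to 53.6 against 50.03 to 56.8 CPM in RNA-seq and 23.1 to 34.2 against 25.3 to 37.4 CPM in footprints. Its log2 differences were 0.02 (SE 0.08) and 0.10 (SE 0.19), with FDR 0.909 and 0.754. Gimap3 and Gimap5 resemble each other in sequence, and reads aligned to several places went to no gene (13.1% to 20.5% of counted reads in RNA-seq and 17.7% to 18.6% in footprints), which makes the levels of this pair uncertain.

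**Figure D2:**
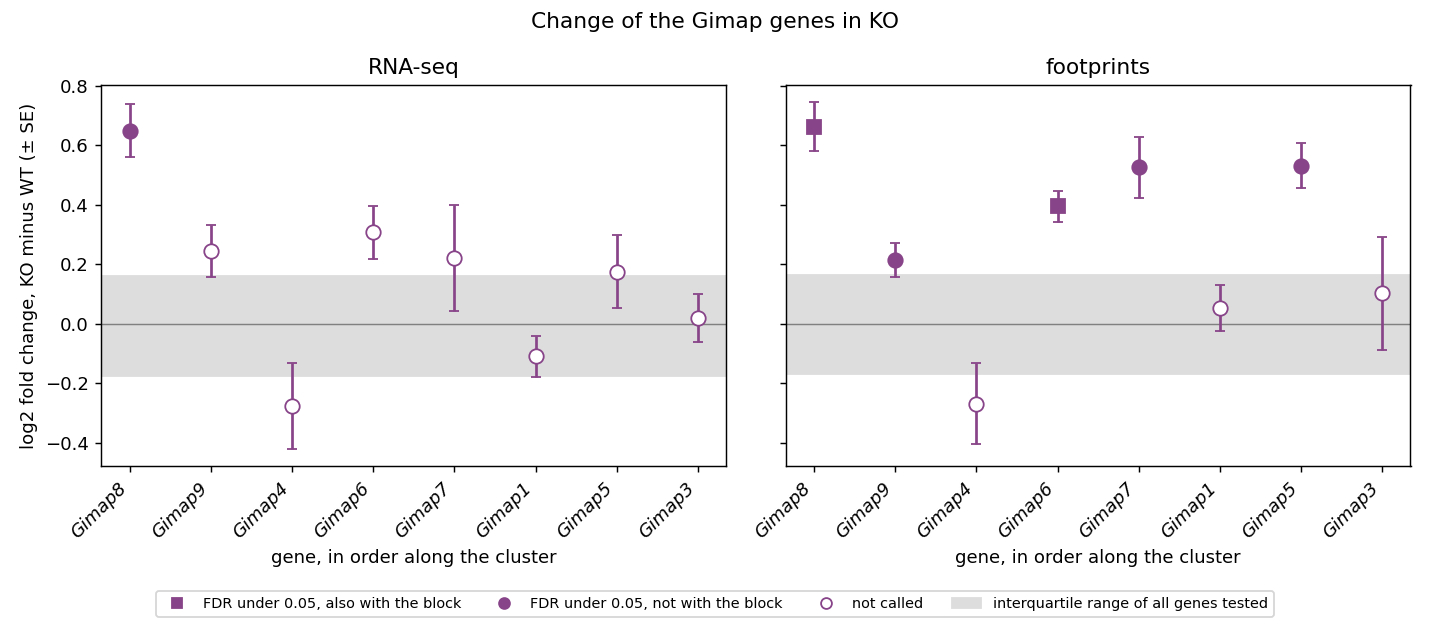
Log2 fold change of KO over WT with its SE for the 8 genes in their order along the cluster, in RNA-seq (left) and footprints (right); filled symbols passed FDR under 0.05, squares also with the replicate block, and the grey band is the interquartile range over all genes tested. Gimap8 at the start of the cluster is highest in both panels (0.65 and 0.66), and Gimap4 is lowest (-0.27 in each).

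The genes called higher in footprints did not form an unbroken run along the chromosome. Gimap4, with lower values in KO that were not called, lies between Gimap9 and Gimap6. Gimap1, with no call, lies between Gimap7 and Gimap5. A missing call does not show that a gene was unchanged. Mean shares of the family's reads also differed between the genotypes for some members. Gimap8 took 17.4% ± 0.683 of the family's RNA-seq reads in WT and 22.9% ± 0.721 in KO, and 12.7% ± 0.376 and 16.5% ± 0.535 of its footprint reads (SD, n = 3). Gimap4 took 8.61% ± 0.837 and 6.01% ± 0.645 in RNA-seq, and 14.0% ± 1.25 and 9.49% ± 0.876 in footprints. The share of Gimap1 was 13.04% ± 1.35 in WT and 10.2% ± 1.02 in KO by RNA-seq, and 5.34% ± 0.108 and 4.53% ± 0.105 by footprints. For these 3 genes the WT and KO shares did not overlap in either assay. The shares of Gimap6 (higher in KO) and Gimap3 (lower) in RNA-seq did not overlap either, nor did those of Gimap7 (higher) in footprints. By level in CPM, all 3 KO libraries lay above all 3 WT libraries for 15.5% of genes in RNA-seq and 18.5% in footprints. They lay below for 15.4% and 19.6%. The same was not worked out for shares of a family, so these separations are a description. Shares of 1 total depend on each other, so a lower share need not be a lower level. The footprint level of Gimap1 was 46.4 CPM in WT and 47.8 CPM in KO. The shares were not tested, and they are shares of reads, not corrected for gene length.

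The ratios of each KO library to the WT library of its number, on which the blocked fit rests, are given as a description. Where the genotypes do not overlap, all 3 are above 1 by construction. For Gimap8 the log2 ratios of replicates 1 to 3 were 0.45, 0.59 and 0.91 in RNA-seq and 0.47, 0.92 and 0.59 in footprints. For Gimap6 they were 0.05, 0.33 and 0.54 in RNA-seq and 0.26, 0.40 and 0.53 in footprints. Those of Gimap4 were -0.74, 0.11 and -0.18 in RNA-seq and -0.55, 0.18 and -0.48 in footprints. Gimap4, whose genotypes overlap, thus had ratios of both signs in each assay.

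**Figure D3:**
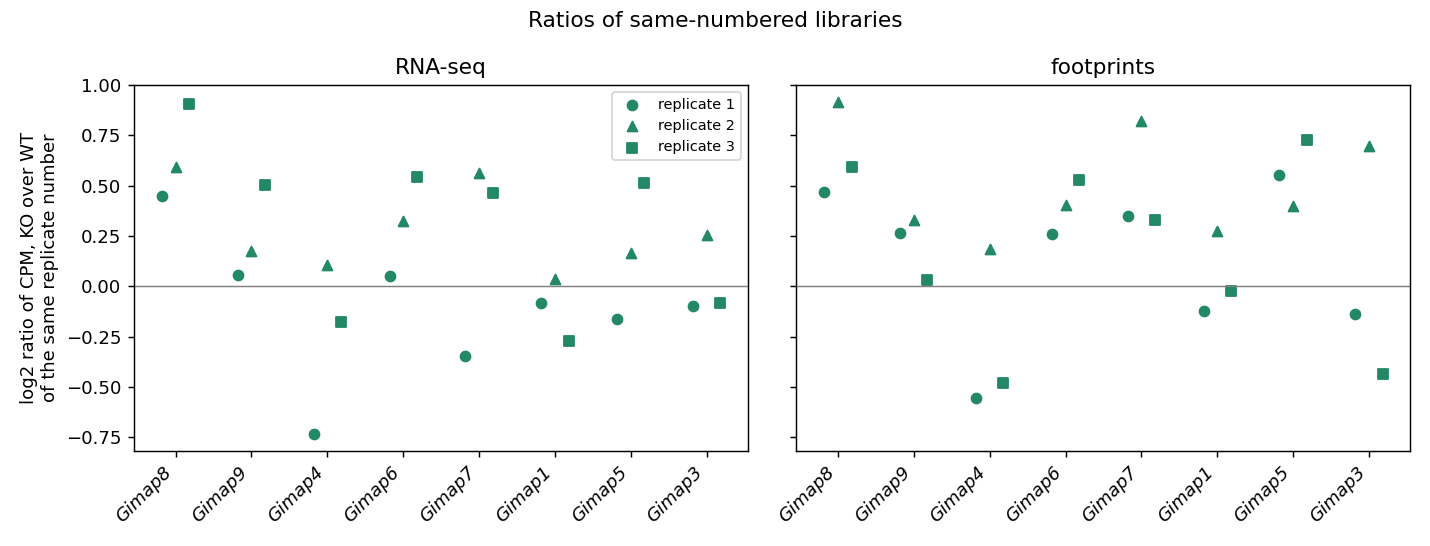
Log2 ratio of CPM in a KO library over the WT library of the same replicate number, for each Gimap gene in RNA-seq (left) and footprints (right), with 1 symbol per number. The 3 ratios of Gimap8 are all above 0.4 in both assays, while those of Gimap1, Gimap3 and Gimap4 fall on both sides of 0 in each. Those of Gimap5 and Gimap7 also fall on both sides of 0 in RNA-seq.

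Footprints relative to RNA differed widely within the family and little between genotypes. The tables of the assays were adjusted separately and the labels do not pair their libraries, so ratios of mean CPM are given as a description. In WT the log2 ratio of footprints to RNA was 1.53 for Gimap9, 1.25 for Gimap7 and 1.13 for Gimap4, above 92.1%, 88.1% and 85.7% of 11854 genes. It was 0.37 for Gimap6 and -0.03 for Gimap8, near the median of -0.19 over all genes. It was -0.79 for Gimap3, -0.85 for Gimap1 and -1.69 for Gimap5, the last above only 12.3% of genes. In KO the ratio was 1.53 for Gimap7, 1.502 for Gimap9, 1.11 for Gimap4, 0.47 for Gimap6, -0.02 for Gimap8, -0.70 for Gimap1, -0.77 for Gimap3 and -1.32 for Gimap5. Gimap7 and Gimap9, and likewise Gimap1 and Gimap3, changed places between the genotypes and lay within their SEs of each other in KO (0.17 and 0.08, and 0.08 and 0.18). The feature over which reads were counted is not given in the sources used here, and footprints come from coding sequence while RNA-seq reads can also come from UTRs, so the order of the genes is one of read ratios.

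The change in translation, meaning the KO effect in footprints beyond that in RNA, was called for 0 of 8 members by edgeR's interaction test, where 0.211% of genes were called, and for 0 by DESeq2 and in both blocked fits. At an unadjusted p under 0.05 lay 1 member, Gimap5 (interaction 0.35 on the log2 scale, SE 0.16, unadjusted p 0.0446, FDR 0.344), where 14% of all genes did. The next largest was Gimap7 (0.30, SE 0.21, FDR 0.567). For Gimap8 the interaction was 0.01 (SE 0.13, FDR 0.986) and for Gimap6 0.09 (SE 0.11, FDR 0.781). Gimap5, Gimap7, Gimap6 and Gimap9 were called in footprints and not in RNA-seq, and this test did not show their effects to differ between the assays.

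**Figure D4:**
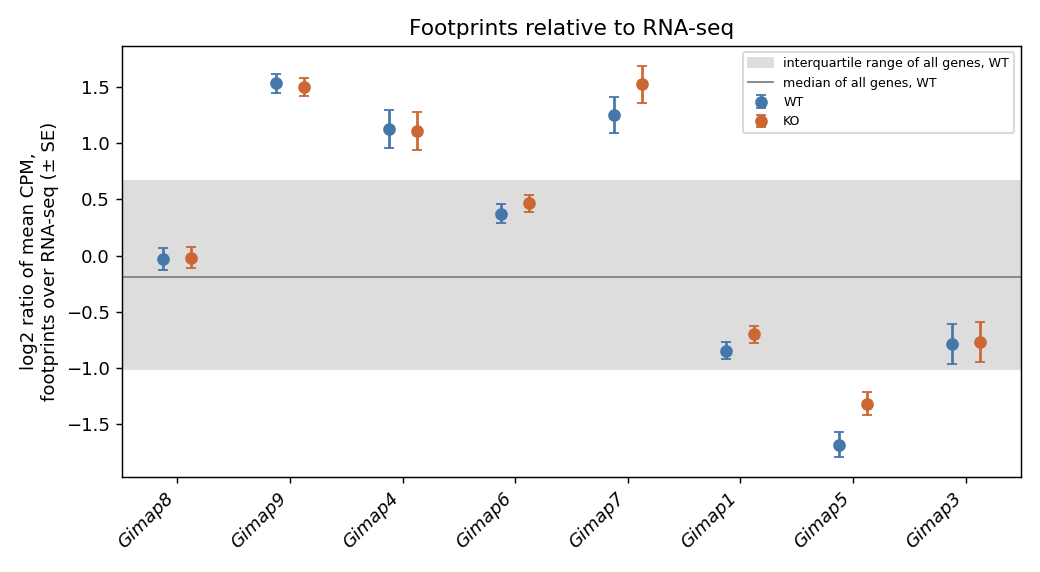
Log2 ratio of mean CPM in footprints over RNA-seq for each Gimap gene, WT in blue and KO in orange, with the SE from 3 libraries of each assay; the grey band and line are the interquartile range and median of 11854 genes in WT. Gimap9, Gimap7 and Gimap4 lie above the band and Gimap5 below it, and WT and KO points of 1 gene lie close together, farthest apart for Gimap5 (-1.69 and -1.32).

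A non-coding transcript of the cluster, Gimap1os (ENSMUSG00000044867.5), rose in footprints as well. In footprints it had 16.8, 17.6 and 15.8 CPM in WT and 27.6, 26.4 and 29.2 CPM in KO, 1.63 times as much (log2 0.71, SE 0.06, edgeR FDR 0.00164, 0.0186 with the block). In RNA-seq it had 46.3, 32.2 and 46.1 CPM in WT and 56.5, 79.6 and 55.6 CPM in KO (log2 difference 0.61, SE 0.19, FDR 0.121, unadjusted p 0.0181). Its KO libraries were above its WT libraries in both. By its name it is transcribed opposite to Gimap1, the strand setting of the counting is not given in the sources used here, and so its reads cannot be told apart from those of a partner gene on the other strand.

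None of the few flanking coding genes tested was called higher, where 3.48% of all genes were in RNA-seq and 9.25% in footprints. Of the 5 nearest protein-coding RefSeq genes on each side, 5 of 10 were tested in RNA-seq and 0 were called by edgeR (2 had an unadjusted p under 0.05, Repin1 and Tmem176a, at log2 differences of -0.42 and -0.44). Over all genes tested in RNA-seq, 6.91% were called and 23.8% had an unadjusted p under 0.05 by edgeR. In footprints 7 of 10 were tested, and Tmem176b and Tmem176a, related membrane protein genes next to Gimap3, fell, where 8.34% of all genes were called lower. Tmem176b had 72.8 ± 0.230 CPM in WT against 61.2 ± 0.114 CPM in KO, and its log2 change was -0.25 (SE 0.03, edgeR FDR 0.00465, 0.188 when blocked). Tmem176a had 33.7 ± 1.73 against 28.4 ± 1.67 CPM, and its log2 change was -0.23 (SE 0.06, edgeR FDR 0.0481, 0.362 when blocked). Zfp775, Repin1, Rarres2, Lrrc61 and Aoc1 were not called in footprints. Of these Lrrc61 had higher values in KO, at 14.7 ± 2.14 CPM in WT against 19.3 ± 3.10 CPM in KO (edgeR FDR 0.154), and the others had lower means.

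In the authors' deposited table for RNA-seq 1 member, Gimap8, is listed as significant and higher, with a log2 fold change of 0.60 (adjusted p 1.35e-06). In the authors' deposited table for RNA-seq 548 of 13301 genes are significant in either direction. The authors' deposited table for footprints lists 5 members as significant and higher, Gimap8 at 0.62 (adjusted p 2.51e-10), Gimap7 at 0.43, Gimap5 at 0.42, Gimap6 at 0.38 and Gimap9 at 0.21. In the authors' deposited table for footprints 1209 of 11369 genes are significant in either direction. Both of the authors' deposited tables list Gimap1os as significant and higher, at 0.50 in RNA-seq and 0.62 in footprints. In the authors' deposited table for footprints Gimap4 stands at -0.25 with an adjusted p of 0.1696, and in both of the authors' deposited tables Gimap1 and Gimap3 are not significant.

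The Gimap genes are known as maturation genes, and other genes known from that stage are set beside them here. Over all genes tested, edgeR called 3.48% higher and 3.43% lower in RNA-seq, and 9.25% and 8.34% in footprints. At an unadjusted p under 0.05 in that test lay 23.8% and 33.1% of genes, in either direction. With the block 9.71% and 16.2% did, and 0.806% and 3.02% were called in either direction. These shares apply to each list below. Of 11 markers of mature single-positive thymocytes, 0 were called higher in RNA-seq (2 at an unadjusted p under 0.05) and 4 lower by edgeR, at a median log2 fold change of -0.36: the transcription factor gene Klf2 (-0.82, FDR 0.0223), the chemokine receptor gene Ccr7 (-0.64, FDR 0.00621), Ms4a4b (-0.79, FDR 0.0169) and Cd52 (-0.36, FDR 0.0350). In footprints Ms4a6b (0.38, FDR 0.00399) and Foxp1 (0.45, FDR 0.00974) were among those called higher, and 2 were called lower, Ms4a4b (-0.76, FDR 0.00547) and Itgb7 (-0.45, FDR 0.0464), at a median of -0.10. With the block 0 of the list were called in RNA-seq (6 at an unadjusted p under 0.05), and Foxp1 (0.0389) and Ms4a4b (0.00648) in footprints. The summed level of the list was 952 to 1044 CPM in WT and 964 to 1043 CPM in KO RNA-seq, and 1475 to 1558 and 1517 to 1610 CPM in footprints.

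Markers of immature CD4+CD8+ thymocytes gave 0 edgeR calls lower of 7 in RNA-seq (2 at an unadjusted p under 0.05), and in footprints 0 higher (1 at an unadjusted p under 0.05) and 2 lower, the recombinase gene Rag1 (-0.30, FDR 0.00866) and the pre-T cell receptor gene Ptcra (-0.37, FDR 0.0293). With the block 0 of 7 were called in either assay, and 2 in each had an unadjusted p under 0.05. All 8 general thymocyte markers were present. Their summed level was 5125 to 5391 CPM in WT and 5268 to 5569 CPM in KO by RNA-seq, which overlap. By footprints it was 9629 to 10447 CPM in WT and 11219 to 12203 CPM in KO, without overlap and in the direction of the Gimap sum, and its part in the Gimap values was not tested. In footprints Cd4 (0.57, FDR 0.00335, with the block 0.0121) and Cd2 (0.24, FDR 0.0344, with the block 0.222) rose and the kinase gene Lck fell (-0.12, FDR 0.0457, with the block 0.519), while 0 of 8 were called in RNA-seq (2 at an unadjusted p under 0.05).

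**Figure D5:**
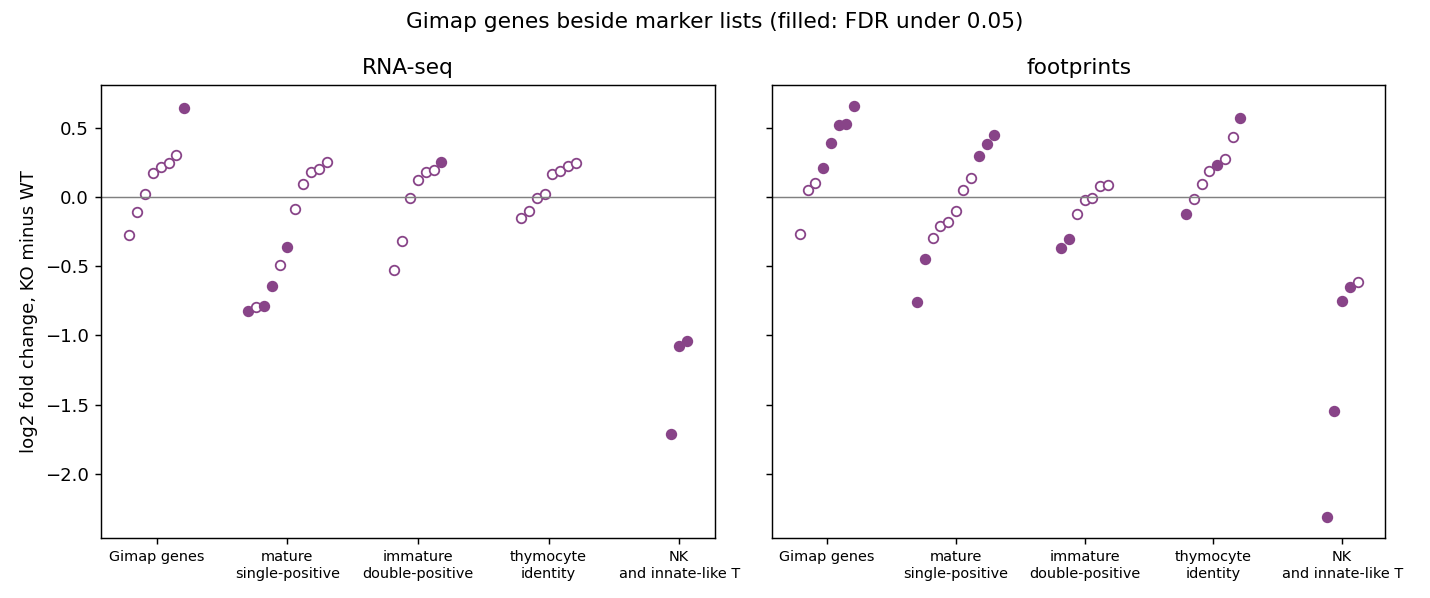
Log2 fold change of KO over WT for each tested gene of the Gimap family and of 4 marker lists, in RNA-seq (left) and footprints (right), sorted within a list; filled points passed FDR under 0.05 without the block. In footprints the Gimap genes run from -0.27 to 0.66, the mature single-positive markers from -0.76 to 0.45, and all tested NK and innate-like T markers lie below 0.

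Markers of NK and innate-like T cells moved the other way, and their part in the Gimap values was not tested. Of 5 markers 3 were tested in RNA-seq and all 3 fell, Zbtb16 (-1.71, FDR 0.0443), Il2rb (-1.08, FDR 0.0316) and Nkg7 (-1.04, FDR 0.0442), and in footprints 4 of 5 fell, Klrb1c, Zbtb16, Nkg7 and Il2rb. With the block 0 passed in RNA-seq (3 at an unadjusted p under 0.05) and 1 in footprints, Il2rb (edgeR FDR 0.0383). Their summed level was 42.1 to 59.2 CPM in WT and 18.1 to 28.6 CPM in KO RNA-seq, and 58.6 to 65.8 and 32.9 to 38.5 CPM in footprints. Endothelial cells also express Gimap genes. Of the endothelial list, Pecam1, which lymphocytes share, rose in both assays (0.25, FDR 0.0358, and 0.13, FDR 0.0423, neither with the block, at 0.589 and 0.497). Its more specific members Cdh5, Kdr, Tek and Cldn5 were at 5.03 CPM or less in both genotypes and assays. Tek and Cldn5 were too low to be tested in either assay, and Cdh5 in RNA-seq. Kdr in both assays and Cdh5 in footprints were tested, and neither was called or had an unadjusted p under 0.05 by edgeR. Cldn5 had 0 reads in KO RNA-seq. The endothelial list summed to 170.3 to 176 CPM in WT and 203 to 213 CPM in KO by RNA-seq, of which Pecam1 made a mean of 171 and 203 CPM, and its part in the Gimap values was not tested. Of 5 B cell markers, Cd79b alone rose, in footprints (0.48, FDR 0.00416, with the block 0.0466), at a summed level of 43.4 to 57.6 CPM in WT and 56.2 to 75.5 CPM in KO, and 0 were called in RNA-seq (1 at an unadjusted p under 0.05). Of 5 myeloid markers and 5 fibroblast markers 0 were called by edgeR in either assay (0 and 1 at an unadjusted p under 0.05 in each). In RNA-seq 4 of the fibroblast markers and 4 of the thymic epithelial markers were tested. Of 5 thymic epithelial markers Krt5 fell in RNA-seq (-1.07, FDR 0.0228) and Epcam in footprints (-0.50, FDR 0.0339), and of 5 erythroid markers Hbb-bs fell in RNA-seq (-0.62, FDR 0.0155) and Alas2 in footprints (-0.74, FDR 0.0300). With the block none of these 4 genes passed. None of the listed genes had 0 reads in an assay as a whole.

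The list of genes reported to work with GIMAP proteins held 11 genes of the ATG8 family of autophagy proteins, of the BCL2 family of death regulators, and Gsk3b. In RNA-seq 0 were called by edgeR (1 higher and 2 lower at an unadjusted p under 0.05), at a median log2 fold change of -0.06. In footprints 3 of 11 were called higher, beside 9.25% of all genes, Gabarap (0.30, FDR 0.00571), the pro-apoptotic Bax (0.29, FDR 0.0288) and Bcl2l11 (0.34, FDR 0.0184), 0 lower, at a median of 0.07, and with the block 0 were called (3 at an unadjusted p under 0.05).

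Across the 12 libraries, with each gene centred within its assay, the genes nearest to the mean profile of the 8 members were Cd3g, a chain of the T cell receptor complex, with a root mean square difference of 0.0146 on the log2 scale, Numb (0.0289), Tdrp (0.0376), Rala (0.0387) and Tob1 (0.0398), out of 8092 genes whose log2 CPM averaged 3 or more in both assays. These are the nearest of many genes, and their closeness is a description only. Among the members the difference from their own mean ran from 0.0758 for Gimap9 to 0.228 for Gimap8 and 0.259 for Gimap4.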

How the data were processed

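Thymocyte RNA-seq and footprint libraries, 3 per genotype and assay, were grouped by the assay, genotype and replicate number in their titles. The deposited values are whole-number counts per Ensembl gene, 1 table per assay, which the authors call adjusted. The submitters' processing notes name Bowtie2 2.5.1, STAR 2.7.10a, HTSeq 2.0.3 and DESeq2 1.40.2 without roles. The genome build and the strand setting were not given in the sources used here. Rows for reads outside genes, ambiguous or with several alignments were left out of library sizes: genes held 27.0% to 28.5% of the counted reads in RNA-seq and 72.3% to 73.1% in footprints. The authors' deposited comparison tables (log2 fold changes and adjusted p-values) are quoted only where named, and their 12 columns of per-library values were not used.

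Each assay was fitted on all genes with edgeR 4.0.16 in R 4.3.3 (TMM, filterByExpr with a minimum count of 10, quasi-likelihood test, Benjamini-Hochberg), and genes with FDR under 0.05 were called. Translation was the genotype-by-assay interaction across 12 libraries, with TMM within each assay. CPM uses the TMM-scaled total, and the SE is the log2 fold change divided by the root of F. The fits were tried on simulated counts drawn independently for each library. These lacked the mirrored deviations of the real libraries and so do not check the calls made here. DESeq2 1.42.0, RLE size factors, no filter, the replicate block, a joint fit and the omission of each library were alternatives. Named genes were the 8 members, other Gimap rows, called genes of 11 lists, the 10 flanking genes and the 5 nearest profiles. Some listed genes are not reported here. Members and lists were chosen with earlier results of these data known.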

Additional observations from a re-analysis of the deposited data

How the results depend on the processing

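The replicate block left 0 of 1 members called in RNA-seq and 2 of 5 in footprints, and kept the count at 0 for translation, with blocks on the number within each assay or across both. By their labels same-numbered libraries share only a number, yet they deviated in mirror image. The unblocked fit takes the libraries of an assay as independent, which the mirrored deviations go against, and the SEs printed for fold changes are from that fit. With the block the SE of Gimap8 in RNA-seq was 0.14 in place of 0.09, and that of Gimap5 in footprints 0.17 in place of 0.08. That of Gimap4 in footprints was 0.14 in both fits. Whether the blocked or the unblocked fit has the right spread between mice was not tested. The joint fit of the 12 libraries gave 2 calls in RNA-seq, Gimap6 being added. With 1 library left out, RNA-seq gave 0 (without WT replicate 2) to 1 calls and footprints 3 (without KO replicate 2) to 5; fewer samples lower such counts by construction. For the other changes the cause was not tested. RLE size factors, DESeq2 and no filter kept the same genes called.

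Directions reversed only for differences that were not called. The translation value of Gimap4, 0.00200, was -0.00345 with RLE size factors, -0.0130 with DESeq2, -0.00911 with the block within each assay and -0.0152 with the block across both assays. With 1 library left out it ranged from -0.136 to 0.0919, that of Gimap3 from -0.127 to 0.180, of Gimap8 from -0.0635 to 0.0757 and of Gimap9 from -0.0914 to 0.0283. The RNA-seq value of Gimap3 then lay between -0.0394 and 0.0530 and its footprint value between -0.105 and 0.206, and the footprint value of Gimap1 between -0.0234 and 0.111. Over all genes, the 943 calls in RNA-seq became 110 with the block and 538 with DESeq2, and the 2376 in footprints became 408 and 1261. The members with the fewest reads were Gimap7 in RNA-seq (149 in WT and 160 in KO) and Gimap5 in footprints (398 and 375).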
